A study of Homo sapiens with 10 samples.

Results

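Oncofetal genes are typically transcribed in the fetal liver, lower or silent in the adult liver and often raised again in hepatocellular carcinoma. The mRNA levels of 10 such genes were examined in hepatocarcinoma cells exposed to sorafenib: AFP, GPC3, HMGA2, LIN28B, IGF2BP1, IGF2BP3, H19, IGF2, DLK1 and SALL4. They were found by gene symbol in the probe table of the Affymetrix HuGene 2.1 ST array. For each gene the transcript cluster that names it alone was used, a cluster being the array's set of probes for a transcript. Of the 10 genes, 8 had such a cluster, out of 22392 genes on the array that had one. The only cluster for H19 also named MIR675, and the only cluster for IGF2 also named INS-IGF2 and INS, so no value is given for either gene.

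RNA came from cultured cells of 2 lines labelled as hepatocarcinoma, Huh7 and shRb. Huh7 is a human hepatoma line. The labels do not spell out the name shRb, and the sources used here do not say whether that line is a single clone. Untreated Huh7 cells gave 2 arrays (replicates 1 and 3) and untreated shRb cells gave 3 (replicates 7, 8 and 9). Cells of each line were also kept in 10 μM sorafenib, a multikinase inhibitor, for 9 h, which gave 2 arrays for Huh7 (replicates 5 and 6) and 3 for shRb (replicates 10, 11 and 12). The treatment of the control arrays is given as none, and no solvent control is named. The sources call the samples biological replicates but do not say that each came from its own culture, so the p-values measure the spread between these arrays, which may in part be technical.

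AFP, or alpha-fetoprotein, is the main serum protein of the fetus and a blood marker of liver cancer, and GPC3 is a proteoglycan at the surface of hepatoma cells. LIN28B is an RNA-binding protein that blocks the maturation of the let-7 microRNAs. These microRNAs repress, among others, the mRNAs of HMGA2, a chromatin protein, of IGF2BP1 and IGF2BP3, proteins that bind and stabilize mRNAs, and of LIN28B itself. H19, IGF2 and DLK1 are imprinted genes of fetal growth, and SALL4 is a zinc-finger factor of stem cells. A microRNA finds its targets mainly by its seed, bases 2 to 8, and all 9 distinct mature let-7 and miR-98 sequences held by RefSeq (GRCh38.p14) share the seed GAGGUAG. The sequences below are shown because LIN28B and its let-7 targets make up much of the measured set and because the precursors of let-7f and let-7i passed a test below. Capitals mark the seed.
hsa-let-7a-5p, chr9:94175962-94175983, + strand: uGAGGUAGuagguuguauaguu
hsa-let-7f-5p, chr9:94176353-94176374, + strand: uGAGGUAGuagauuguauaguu
hsa-let-7d-5p, chr9:94178841-94178862, + strand: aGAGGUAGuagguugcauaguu
hsa-let-7i-5p, chr12:62603691-62603712, + strand: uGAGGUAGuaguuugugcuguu
hsa-miR-98-5p, chrX:53556299-53556320, - strand: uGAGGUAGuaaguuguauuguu

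All values below are log2 signals as deposited, and a difference of 1 is a doubling of the signal. On arrays without read counts, the number of arrays sets the precision, and intervals are 95% intervals from limma. A background level was taken on each array as the 95th percentile of 432 olfactory receptor clusters, genes that liver cells do not use, and it lay between 3.58 and 3.82. All 8 measured oncofetal genes were above it on all 10 arrays. The liver identity of the cells was checked on 9 markers, of which 7 were measured and all 7 (albumin and apolipoprotein genes among them) were above background on every array. Their summed level was between 13.44 and 13.52 in untreated Huh7 and between 13.65 and 13.71 in untreated shRb on the log2 scale. Of 7 measured endothelial markers, 5 were below background throughout, as were 3 of 7 leukocyte and 2 of 7 fibroblast markers. Above background on every array were 2 endothelial, 3 leukocyte and 4 fibroblast markers, among them LYZ, between 10.6 and 11.2, and CD68, between 7.56 and 8.84. The summed level of the fibroblast list was between 7.13 and 7.21 in untreated Huh7 and between 6.82 and 6.93 in untreated shRb on the log2 scale. Its member LUM was 1.66-fold lower in untreated shRb (adjusted p = 0.00928), which was lost without Huh7 replicate 1 or 3. In treated cells the mean of LUM was 5.69 in Huh7 and 5.69 in shRb, and no fibroblast marker passed the test between the lines. The summed level of the leukocyte list overlapped between the groups, and its member CD68 was 1.99-fold lower in treated shRb than in treated Huh7 (adjusted p = 0.00941), which was lost without Huh7 replicate 6 (0.103). The part of these markers in the line differences below was not tested. RB1, the retinoblastoma gene, was at 7.99 and 8.18 in untreated Huh7 and between 5.56 and 5.94 in untreated shRb, a 4.84-fold lower signal (log2 difference -2.28, adjusted p = 0.00103). In the treated cells it was 5.03-fold lower in shRb (adjusted p = 6.673e-04). The sources do not tie the arrays to a strip or a run, so a batch and the line cannot be told apart.

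**Figure D1:**
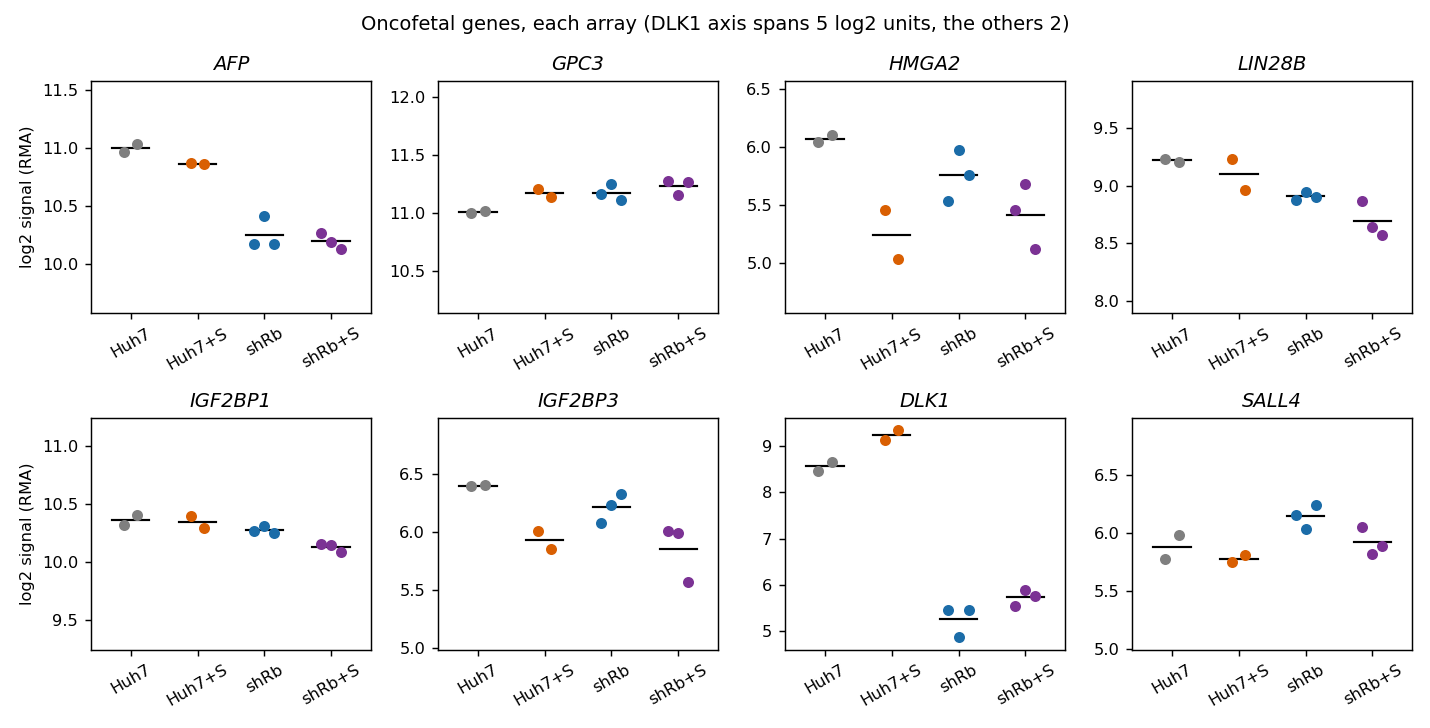
Log2 signal of the 8 measured oncofetal genes on each array (points) with the mean of each group (bars), for untreated and sorafenib-treated (+S) Huh7 and shRb cells. DLK1 spans 4.45 log2 units over the arrays, against 1.06 for HMGA2 and 0.27 for GPC3.

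Of the oncofetal genes, DLK1 and AFP were lower in shRb, with and without sorafenib, and the other 6 did not pass the test in either comparison. These 2 of 8 genes compare with 0.536% of all 22392 genes that were lower in untreated shRb at an adjusted p under 0.05 from limma, and with 1.80% in the treated cells. The 8 genes were chosen with earlier results of these data known. Comparisons with the share of all genes, here and below, are therefore descriptions. They cannot test whether oncofetal genes changed more often than others. The arrays of the lines stood apart, with no overlap, for all 8 genes in untreated cells, against 35.2% of all genes, and for 5 in treated cells, against 32.4%. The median difference over the 8 genes was -0.25 in untreated cells, against 0.01 over all genes. In treated cells it was -0.14, against -0.01. The untreated and the treated comparison use different arrays.

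DLK1, a membrane protein of the Notch ligand family that marks hepatoblasts, carried the largest difference. Its log2 signal was 8.47 and 8.66 in untreated Huh7, 9.14 and 9.34 in treated Huh7, 5.46, 4.88 and 5.46 in untreated shRb, and 5.54, 5.90 and 5.77 in treated shRb. Every shRb array was more than 2 log2 units below every Huh7 array, and the lowest shRb array still exceeded the background level. DLK1 was 9.83-fold lower in untreated shRb than in untreated Huh7 (log2 difference -3.30, SE 0.19, adjusted p = 4.574e-05, n = 3 and 2) and 11.3-fold lower in treated shRb (-3.50, SE 0.19, adjusted p = 2.203e-05). By size of the fall it ranked 1 of the 22392 genes in both comparisons. This call was lost under the methods' t-test, which pools no variance across genes (adjusted p = 0.183 in untreated and 0.161 in treated cells).

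DLK1 lies in an imprinted region of chromosome 14 with MEG3 and MEG8, which are noncoding RNAs of the maternal copy, and RTL1, DIO3 and BEGAIN. None of these 5 neighbours was above background on any array. Their differences between untreated shRb and untreated Huh7 ranged from -0.28 to 0.13 and none passed the test. A list of 20 measured genes held imprinted genes of the H19 and DLK1 regions and elsewhere, and also CTCF and ZFP57. None of the list passed the test in the untreated or the treated line comparison. Its median difference in untreated cells was -0.01. In the difference averaged over treatments, a contrast added after the data were seen, MEST, an imprinted gene of fetal growth, was higher in shRb (log2 difference 0.49, adjusted p = 0.0224). That call held with only 4 of the 10 arrays left out in turn (adjusted p up to 0.0992, without Huh7 replicate 3). Profiles over the 10 arrays, each centred on its own mean, were compared for 12926 genes whose mean lay above background. Nearest to DLK1 was RFPL4B (root mean square difference 0.63), followed by CRISP3 (0.67). DLK1 itself varied by 1.70 on this measure, so the match was partial. Both genes were picked for this likeness on the same arrays, so their line difference follows from the choice and is no test. RFPL4B was 4.28-fold lower in untreated shRb and 5.57-fold lower in treated shRb. Its signal in shRb, between 3.80 and 4.20, was only just above the background level. CRISP3 lay between 5.31 and 5.95 in Huh7 and between 3.17 and 3.72 in shRb, which is about the background level.

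AFP differed less, but in the same direction. Its signal was 10.97 and 11.03 in untreated Huh7 and 10.87 and 10.86 in treated Huh7. In shRb it was 10.16, 10.41 and 10.17 without and 10.27, 10.18 and 10.12 with sorafenib. All 6 shRb arrays lay below all 4 Huh7 arrays. AFP was 1.68-fold lower in untreated shRb (log2 difference -0.75, SE 0.11, adjusted p = 0.0155) and 1.59-fold lower in treated shRb (-0.67, SE 0.11, adjusted p = 0.0169). Averaged over both treatments, a contrast added after the data were seen, the difference was -0.71 (SE 0.08, adjusted p = 0.00118). AFP and DLK1 were the 2 oncofetal genes lower in this contrast, against 2.91% of all genes. With single arrays left out, the call in untreated cells was lost without Huh7 replicate 1 (adjusted p = 0.120) or 3 (0.155) and without shRb replicate 7 (0.0732) or 9 (0.0673), and the call in treated cells without Huh7 replicate 5 (0.109) or 6 (0.118). The averaged difference passed the test with any array left out (adjusted p from 0.00195 to 0.0102).

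The 250 bases before the start of AFP are shown because this promoter is a textbook example of liver-specific control by HNF1, a homeodomain factor. They lie at chr4:73435971-73436220 on the + strand (RefSeq, GRCh38.p14). Capitals mark the stretch GTTAAT, the first letters of the HNF1 consensus, and the TATA box form TATAAAA, each searched on both strands and not overlapping.
AFP promoter: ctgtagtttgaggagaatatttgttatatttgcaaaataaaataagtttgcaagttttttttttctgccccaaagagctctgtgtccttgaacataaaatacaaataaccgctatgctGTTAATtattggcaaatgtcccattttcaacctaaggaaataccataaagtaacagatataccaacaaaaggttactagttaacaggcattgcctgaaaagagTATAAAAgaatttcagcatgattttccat
The first stretch lies 132 to 127 bases before the start and the second 29 to 23 bases before it. Among 35116 RefSeq promoters of this length, 6.23% held the first and 4.18% the second. A match is a description of the letters and not a measured site.

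Of 10 measured genes of the AFP locus and its known regulators, none passed the test between untreated lines and 1 did in treated cells. That gene was ALB, albumin, the neighbour of AFP that takes its place after birth. ALB was between 11.4 and 11.7 in the 4 Huh7 arrays and between 11.99 and 12.1 in the 6 shRb arrays, thus opposite to AFP. In treated cells ALB was 1.48-fold higher in shRb (log2 difference 0.56, adjusted p = 0.0215), a call that was lost without Huh7 replicate 5 (0.0821) or 6 (0.172) or shRb replicate 10 (0.0510). In shRb 4 regulators changed with sorafenib while AFP did not pass the test (log2 difference -0.06, interval -0.28 to 0.17). FOXA1, a pioneer factor of the liver, fell from between 5.73 and 5.95 to between 4.63 and 4.88 (log2 difference -1.06, adjusted p = 0.00104). FOXA1 also passed in Huh7, where it fell from 5.97 and 5.85 to 5.35 and 5.09. Its call in Huh7 held with only 2 of the 10 arrays left out in turn. The FOXA1 effect averaged over both lines ranged from -0.94 to -0.81 with single arrays left out. In shRb CEBPA, a factor of differentiated hepatocytes, fell by 0.67 (adjusted p = 0.00645). ZHX2, a repressor of AFP in the mouse, and CEBPB rose in shRb by 0.48 and 0.38. The calls for ZHX2 and CEBPB were lost without shRb replicate 7 (adjusted p = 0.0556 and 0.0908), 8 (0.0525 and 0.0896), 9 (0.0587 and 0.0895) or 12 (0.0549 and 0.0705), and that for CEBPB also without 10 (0.0572) or 11 (0.0591).

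GPC3 was at 11.00 and 11.02 in untreated Huh7, 11.21 and 11.14 in treated Huh7, 11.16, 11.25 and 11.11 in untreated shRb, and 11.27, 11.16 and 11.26 in treated shRb. It was the steadiest of the 8 genes, with untreated Huh7 just below the other groups. The difference between untreated lines was 0.17 (interval -0.06 to 0.39, adjusted p = 0.667) and that in treated cells 0.06 (-0.16 to 0.28). Among 10 other glypicans and enzymes of heparan sulphate, only GPC6, another glypican, passed the test between the lines. GPC6 was between 8.52 and 8.65 in Huh7 and between 7.59 and 7.81 in shRb, 1.95-fold lower in untreated shRb (adjusted p = 0.00295) and 1.76-fold lower in treated shRb (adjusted p = 0.00478). The call in treated cells was lost without Huh7 replicate 6 (0.0552). With sorafenib none of the 10 passed in a single line. In the effect averaged over both lines GPC5 passed as higher (adjusted p = 0.0248). GPC5 lay between 2.76 and 3.57, below background on every array, so no size is given for it. EXT1, a heparan sulphate polymerase, rose by 0.38 on average (adjusted p = 0.0345). The calls for GPC5 and EXT1 held with only 5 and 2 of the 10 arrays left out in turn.

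LIN28B was at 9.23 and 9.20 in untreated Huh7, 9.23 and 8.96 in treated Huh7, 8.88, 8.94 and 8.90 in untreated shRb, and 8.86, 8.64 and 8.57 in treated shRb. All shRb arrays were below all Huh7 arrays, but the differences did not pass the test (log2 difference -0.31, adjusted p = 0.414 in untreated cells and -0.40, adjusted p = 0.156 in treated cells). For the difference averaged over treatments, -0.36 with an SE of 0.09, the adjusted p was 0.0575. LIN28A, the paralog of LIN28B, was below background on every array. Of 10 measured genes that process let-7 or work with LIN28, none passed the test in any of the planned comparisons.

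IGF2BP1 had signals of 10.31 and 10.40 in untreated Huh7, 10.39 and 10.29 in treated Huh7, 10.27, 10.31 and 10.25 in untreated shRb, and 10.15, 10.15 and 10.09 in treated shRb. Treated shRb was the lowest group and stood apart from the other 3, yet the difference from treated Huh7 was only -0.21 (interval -0.43 to 0.003, adjusted p = 0.369). SALL4 had signals of 5.77 and 5.99 in untreated Huh7 and 5.75 and 5.81 in treated Huh7. In shRb it was at 6.16, 6.04 and 6.24 without and 6.05, 5.82 and 5.89 with sorafenib. Untreated shRb had the highest mean and was above both Huh7 groups, but it overlapped treated shRb (log2 difference to untreated Huh7 0.26, adjusted p = 0.509). SALL1, SALL2 and SALL3, the other factors of this family, did not pass the test in any comparison either.

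**Figure D2:**
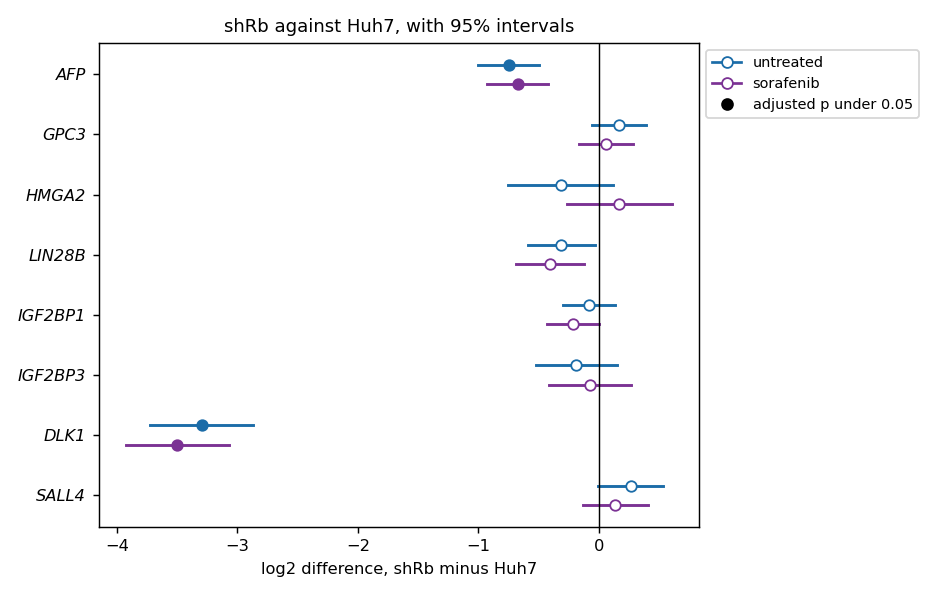
Log2 difference between shRb and Huh7 for the 8 genes, in untreated and in sorafenib-treated cells (points) with 95% intervals from limma (lines). Filled points have an adjusted p under 0.05: DLK1 at -3.30 and -3.50 and AFP at -0.75 and -0.67.

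Sorafenib moved no oncofetal gene past the threshold in either line. In Huh7 the count was 0 of 8, against 1.90% of all genes, and 3 of 8 had an unadjusted p under 0.05, against 13.5%. In shRb it was 0 of 8, against 6.70%, and 2 of 8 had an unadjusted p under 0.05, against 20.1%. The control and treated arrays did not overlap for 5 genes in Huh7, against 47.7% of all genes, and for 4 in shRb, against 25.5%. The effects had the same sign in both lines for all 8 genes, against 60.0% of all genes, and the 2 lines share no array. Some of these effects are close to 0 and turned sign with single arrays left out. No gene of the 8 differed in its effect between the lines, either at the adjusted threshold (0.0849% of all genes) or at an unadjusted p under 0.05 (8.85%).

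HMGA2 and IGF2BP3 were lower with sorafenib, and DLK1 higher, when the effect was averaged over both lines, a contrast added after the single-line results were known. In it 3 of 8 genes passed the test, against 8.29% of all genes. HMGA2 was at 6.04 and 6.10 in untreated and 5.45 and 5.04 in treated Huh7, and at 5.54, 5.97 and 5.76 in untreated and 5.45, 5.68 and 5.12 in treated shRb. The groups were apart in Huh7 and overlapped in shRb. The effect was -0.83 in Huh7 (SE 0.21, adjusted p = 0.0964), -0.34 in shRb (SE 0.17, adjusted p = 0.377) and -0.58 on average (SE 0.14, adjusted p = 0.0319). The difference between the lines was 0.49 (interval -0.13 to 1.10).

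IGF2BP3 was at 6.39 and 6.40 in untreated and 6.01 and 5.85 in treated Huh7, and at 6.08, 6.23 and 6.33 in untreated and 6.01, 5.99 and 5.57 in treated shRb. Treated arrays were below untreated ones in each line. Its effect was -0.47 in Huh7 (adjusted p = 0.240), -0.36 in shRb (adjusted p = 0.196) and -0.41 on average (SE 0.11, adjusted p = 0.0458). For DLK1, whose values are given above, treated arrays were above untreated ones in each line. The effect was 0.67 in Huh7 and 0.47 in shRb (adjusted p = 0.173 in each) and 0.57 on average (SE 0.13, adjusted p = 0.0307).

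These 3 averaged calls rested on most of the arrays. That of HMGA2 was lost without Huh7 replicate 1 (adjusted p = 0.0923), 3 (0.110) or 6 (0.133) or shRb replicate 8 (0.0711), 9 (0.0663) or 12 (0.0544). That of DLK1 was lost without Huh7 replicate 1 (0.121), 3 (0.0718), 5 (0.0617) or 6 (0.121) or shRb replicate 11 (0.0603) or 12 (0.0655). That of IGF2BP3 held only without shRb replicate 10 or 11, and its adjusted p reached 0.164 without Huh7 replicate 6. The direction was the same with every array left out.

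**Figure D3:**
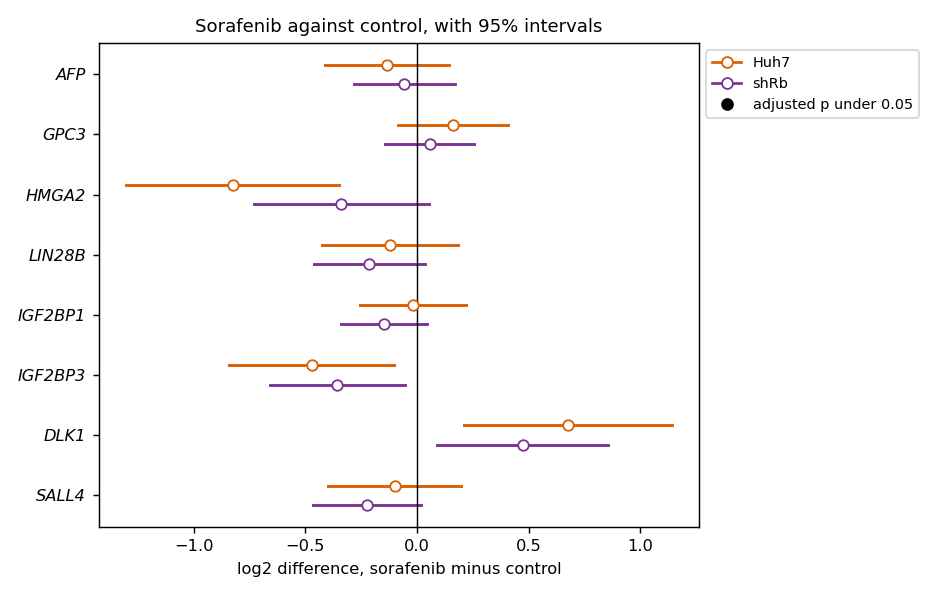
Log2 difference between sorafenib-treated and untreated cells for the 8 genes in Huh7 and in shRb (points) with 95% intervals from limma (lines). No point passed the adjusted threshold. HMGA2, at -0.83 in Huh7, and DLK1, at 0.67, lie farthest from 0.

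Genes with a profile like that of HMGA2 over the 10 arrays were MTRFR (root mean square difference 0.136) and ZNF407-AS1 (0.141), against a variation of 0.348 for HMGA2 itself. MTRFR, a mitochondrial release factor, was between 6.08 and 6.15 in untreated and 5.45 and 5.49 in treated Huh7 (log2 difference -0.65). Both genes were picked for this likeness on the same arrays, so the difference is a description and no test.

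Most let-7 microRNA genes were at the limit of detection. Of 10 measured precursor genes, 7 were never above background. MIR98, between 5.13 and 5.99, and MIRLET7E, between 3.91 and 4.53, were above it on every array and did not pass the test in any comparison. MIRLET7F1 had signals of 3.23 and 2.49 in untreated and 1.53 and 1.45 in treated Huh7 (adjusted p = 0.0379), and MIRLET7I between 3.19 and 3.36 in untreated and 2.69 and 2.96 in treated shRb (adjusted p = 0.0426). Both passed the test but lay below background, so no fold is given. Mature microRNAs were not measured separately. Each call was lost with 7 of the 10 arrays left out in turn, with adjusted p up to 0.214 for MIRLET7F1 without Huh7 replicate 1 and 0.142 for MIRLET7I without shRb replicate 7. In the effect averaged over both lines these 2 precursors passed (adjusted p = 0.00608 and 0.00647), both calls held with each of the 10 arrays left out in turn, and no other precursor passed.

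Other known let-7 targets moved in part with sorafenib. Of 15 measured, 2 fell and none rose in Huh7, against 1.90% of all genes called in either direction, and 5 fell and none rose in shRb, against 6.70%. In the effect averaged over both lines 4 fell and 2 rose, against 8.29%. The 2 that rose were INSR, the insulin receptor, and IRS2, a docking protein of the receptor. INSR rose by 0.42 (adjusted p = 0.0116), a call lost without Huh7 replicate 3 or 6. IRS2 passed (adjusted p = 0.0342) but lay between 2.54 and 3.40, below background on every array, so no size is given for it. The IRS2 call held with only 3 of the 10 arrays left out in turn. The median effect over the 15 was 0.06 in Huh7 and -0.08 in shRb, and most of the list did not pass the test. MYCN, the MYC relative of neural and hepatic progenitors, was at 6.43 and 6.48 in untreated and 5.47 and 4.98 in treated Huh7 (2.35-fold lower, adjusted p = 0.0139). In shRb MYCN went from between 6.32 and 6.60 to between 5.03 and 5.43 (2.37-fold lower, adjusted p = 0.00222). PLAGL2, a zinc-finger activator of IGF2, was between 8.13 and 8.38 in untreated and 7.04 and 7.17 in treated shRb (2.29-fold lower, adjusted p = 2.591e-04). CDC25A, a phosphatase of the cell cycle, fell in both lines, by 0.59 in Huh7 and by 0.57 in shRb. CDK6 and CCND1, which drive the G1 phase, fell in shRb by 0.44 and 0.54. The call for MYCN in Huh7 was lost without Huh7 replicate 1 (0.0855), 3 (0.0954) or 6 (0.103), and that for CDC25A in Huh7 without any of the 4 Huh7 arrays or the 3 untreated shRb arrays (up to 0.224, without Huh7 replicate 6). The calls for CDK6 and CCND1 were each lost with 5 of the shRb arrays left out in turn, with adjusted p up to 0.106. Sorafenib blocks kinases upstream of ERK. Of 12 measured genes of the ERK pathway output, 3 fell in Huh7, against 1.90% of all genes called in either direction. In shRb 8 fell, against 6.70%, and none rose in either line. None of the 12 passed the test for a difference of effects between the lines. In the averaged effect 9 fell, against 8.29%. DUSP6, a phosphatase induced by ERK, fell 2.82-fold in Huh7 (adjusted p = 0.00432) and 3.52-fold in shRb (adjusted p = 2.267e-04). The part of this output in the levels of the oncofetal genes was not tested.

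Of 18 measured genes of the insulin-like growth factor axis, none passed the test in Huh7 with sorafenib, and 1 rose and 1 fell in shRb. IRS1, the docking protein of the receptors, was between 6.03 and 6.19 in untreated and 4.79 and 5.29 in treated shRb (2.21-fold lower, adjusted p = 0.00209). STC2, which restrains the release of the factors from their binding proteins, rose from between 4.42 and 4.84 to between 5.46 and 5.61 (1.93-fold, adjusted p = 0.00376). Between untreated lines STC2 was 2.30-fold lower in shRb (adjusted p = 0.00548), a call lost without Huh7 replicate 3 (0.0815). IGFBP3, a binding protein of the factors, was 1.91-fold higher in untreated shRb (adjusted p = 0.0317), and this was lost without any of the 5 untreated arrays (adjusted p up to 0.261, without Huh7 replicate 1) or without shRb replicate 11 (0.0529). PHLDA2, an imprinted gene near IGF2 that restrains placental growth, was the only imprinted gene to pass the test with sorafenib in shRb, where it fell by 0.91 (adjusted p = 0.00391).

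Of 8 measured markers of hepatic progenitors and cholangiocytes, 1 was higher and 1 lower in untreated shRb, and none was higher and 1 lower in treated shRb. SPP1, or osteopontin, was at 7.78 and 7.57 in untreated Huh7, 7.67 and 7.38 in treated Huh7, 5.31, 5.56 and 5.59 in untreated shRb, and 4.93, 4.63 and 4.44 in treated shRb. It was 4.55-fold lower in untreated shRb (adjusted p = 2.406e-04) and 7.23-fold lower in treated shRb (adjusted p = 3.963e-05). EPCAM, a surface marker of hepatoblasts, was 1.66-fold higher in untreated shRb (adjusted p = 0.0108), which was lost without Huh7 replicate 1 (0.131) or 3 (0.0937) or shRb replicate 7 (0.0557) or 8 (0.0551). In treated cells EPCAM did not pass the test (log2 difference 0.32, adjusted p = 0.181). With sorafenib 3 of the 8 fell in shRb, against 6.70% of all genes called in either direction, and none in Huh7, against 1.90%. None of the 8 passed the test for a difference of effects between the lines. In the averaged effect 2 fell, against 8.29%. SOX9, a factor of progenitors, fell by 0.88 in shRb (adjusted p = 0.00293). In Huh7 SOX9 was at 8.84 and 9.03 in untreated and 8.39 and 8.54 in treated cells, without passing the test. In bulk RNA, fewer cells of a type and less RNA per cell cannot be told apart.

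Among 12 other genes tied to hepatoma, DKK1 and GOLM1 stood out. DKK1, a secreted inhibitor of Wnt signalling used as a serum marker, was at 9.03 and 9.18 in untreated and 7.58 and 7.34 in treated Huh7, and between 9.05 and 9.13 in untreated and 6.68 and 7.27 in treated shRb. It fell 3.14-fold in Huh7 (adjusted p = 0.00402) and 4.04-fold in shRb (adjusted p = 2.134e-04). GOLM1, a Golgi protein that also serves as a serum marker, was 1.95-fold lower in untreated shRb (adjusted p = 0.00584) and 2.83-fold lower in treated shRb (adjusted p = 3.177e-04). The first of these calls was lost without Huh7 replicate 1 (0.0501) or 3 (0.0881). Of 10 measured genes of mature hepatocyte function, 2 were lower in untreated shRb and none higher. They were TDO2, which was below background on every array, and HPD, an enzyme of tyrosine breakdown. The TDO2 call was lost without Huh7 replicate 1 (0.0641) or 3 (0.0721), and the HPD call without any of the 5 untreated arrays (adjusted p from 0.0815 to 0.224). HPD was between 4.71 and 4.95 in Huh7 and between 3.70 and 4.14 in shRb. It was 2.13-fold lower in treated shRb (adjusted p = 8.925e-04), where its signals of 3.78, 3.91 and 3.70 were about at the background level.

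**Figure D4:**
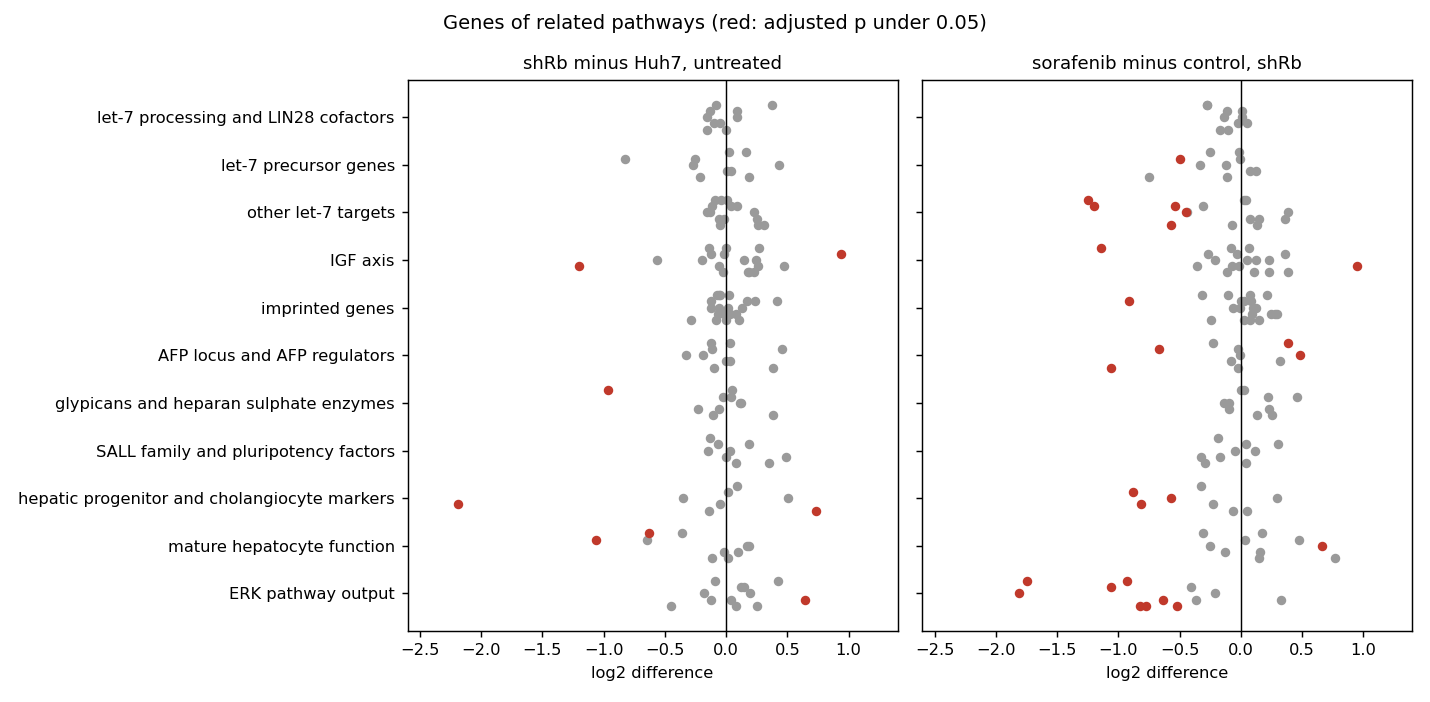
Log2 difference of each measured gene of 11 related lists between untreated shRb and untreated Huh7 (left) and between sorafenib-treated and untreated shRb (right), where 1 point is 1 gene and red marks an adjusted p under 0.05. SPP1, at -2.19, is the red point farthest from 0 on the left, and red points of the ERK pathway output lie below 0 on the right.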

How the data were processed

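RNA of 10 cell samples was hybridized to Affymetrix HuGene 2.1 ST arrays. The deposited values are log2 signals that the authors normalized with Affymetrix Expression Console by RMA-sketch, which corrects background, equalizes the arrays and summarizes probes by transcript cluster, so that a global shift between arrays would be removed. The software version and genome build are not given in the sources used here. Groups came from the sample titles. Of 53617 clusters, the probe table gives 23866 a single gene symbol, 1852 more than 1 and 27899 none. A gene was represented by the brightest of the clusters that name no other gene.

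A linear model of the 4 groups was fitted to all 10 arrays with limma 3.58.1 (R 4.3.3) and 6 residual degrees of freedom, with Benjamini-Hochberg adjustment over all 53617 clusters and a threshold of 0.05. The 5 planned contrasts were the sorafenib effect in each line, their difference, and shRb against Huh7 without and with sorafenib. The 2 averaged contrasts were added after the data were seen. The untreated comparison shares control arrays with the sorafenib effects. The script was tested on simulated data with known changes.

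The genes named were the 10 oncofetal genes, RB1, up to 4 genes with the smallest p per list and contrast from 16 lists (187 genes, 165 measured), and the 2 genes nearest in profile to each oncofetal gene that spans over 1 log2 unit. LIN28A, CCND1, CD68 and the neighbours of DLK1 were named in addition where a count called for it. The members and lists were chosen with earlier results of these data known.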

Additional observations from a re-analysis of the deposited data

Results flagged for a closer look

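No group holds 4 or more arrays, so no array was tested as an outlier. In 5 genes of the related lists all treated arrays of the first line moved one way from the controls and all treated arrays of the other line moved the opposite way, without overlap. The difference between the effects, shRb minus Huh7, was tested in limma and none passed the adjusted threshold. For LUM, a matrix proteoglycan, the difference was 0.74 (SE 0.14, adjusted p = 0.182). For TAT, an enzyme of tyrosine breakdown, it was 0.63 (adjusted p = 0.558), and for HPD, of the same pathway, -0.47 (adjusted p = 0.459). For GOLM1 it was -0.53 (adjusted p = 0.468), and for AGO2, the effector protein of microRNAs, -0.45 (adjusted p = 0.520). None of the 8 oncofetal genes met this criterion of opposite moves without overlap. The lists hold 165 measured genes, and the share of all genes that met the criterion is not given here. Control and treated arrays did not overlap for 47.7% of all genes in Huh7 and for 25.5% in shRb. The effects had the same sign in both lines for 60.0% of all genes. Without a share for the criterion itself, the count of 5 is a description and does not show that these genes stand out.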

How the results depend on the processing

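In each line comparison the lower DLK1 in shRb passed the test under all alternatives except the methods' t-test, and with every array left out. Where an array of a pair was left out, the lone array was assumed to vary like the other groups. With the arrays of the compared groups alone, 1 oncofetal gene passed in the untreated and 1 in the treated line comparison, AFP being lost (adjusted p = 0.0741 and 0.109). The methods' t-test left 0 in both and 0 in the averaged sorafenib effect. In the averaged line difference, added after the data were seen, DLK1 and AFP passed under each of 7 alternatives, this t-test among them. With single arrays left out, the number of oncofetal genes passing ranged from 1 to 2 in each line comparison, from 2 to 3 in the averaged line difference and from 0 to 3 in the averaged sorafenib effect, and it stayed at 0 in the sorafenib effect of each line and in their difference.

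The replicate ordinals of control and treated shRb arrays do not pair them (correlations of -0.15, -0.16 and -0.05), and both treated Huh7 samples carry the same ordinal. As a block they left 1 oncofetal gene in the untreated line comparison, where AFP had an adjusted p of 0.0546, 2 in the treated one, 1 in the averaged sorafenib effect and 0 in that of shRb, with 2007, 249, 611, 1272 and 1 clusters passing in the shRb effect, the untreated, treated and averaged line comparisons and the difference of effects.

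Counts of clusters moved more. In the Huh7 effect 1094 passed, 702 among clusters with 1 gene symbol, 421 with the Huh7 arrays alone, 0 under the methods' t-test and 199 to 1280 with single arrays left out. In the shRb effect 2887 passed, 1903 alone, 141 under the t-test and 1517 to 2723 with arrays left out. For the difference of effects it was 26, with 51 under a trended and robust variance, 48 among brighter clusters, 77 among clusters with 1 symbol and 3 to 20 with arrays left out. In the untreated line comparison 546 passed, 279 alone, 13 under the t-test and 137 to 594 with arrays left out, and in the treated one 1223, 222, 0 and 303 to 909. In the averaged sorafenib effect 3949 passed, 2602 among clusters with 1 symbol, 2522 under the t-test and 2306 to 4471 with arrays left out, and in the averaged line difference 2058 and 950 to 2094. Among clusters with 1 symbol the share of higher calls in the Huh7 effect was 49.0%, against 38.0% over all clusters.

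Directions turned only for small differences, given here as the range with single arrays left out. In the Huh7 effect LIN28B ranged from -0.255 to 0.0133, IGF2BP1 from -0.0681 to 0.0351 (0.00401 under median centring) and SALL4 from -0.206 to 0.00728. AFP ranged from -0.0986 to 0.0249 in the shRb effect, and LIN28B from -0.226 to 0.0416 in the difference of effects. In the treated line comparison HMGA2 ranged from -0.0362 to 0.379 and IGF2BP3 from -0.150 to 0.0722, and HMGA2 from -0.176 to 0.0320 in the averaged line difference. No oncofetal gene has a further cluster of its own, and no fit to the arrays of the compared groups alone was possible for contrasts of all 4 groups.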
